A study of Homo sapiens with 7 samples.

Results

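Nascent RNA was compared between 1 library of CFAP20-knockout cells that express CFAP20-GFP (the rescue library) and wild-type (WT) replicate 2, which share a number in the column names of the splice table; what that number stands for is not stated. These are 2 of 7 libraries in the series, beside WT replicates 1 and 3 and CFAP20-KO replicates 1, 2 and 3. The members were the 9708 windows around transcript start sites present in both libraries' tables, of 9902 in any table, and the 6593 introns with a splice index in both, of 6709 in the table. With 1 library on each side there is no test, and every difference given here lies between 2 libraries and not between 2 genotypes.

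All 7 libraries came from RPE1 iCas9 p53/puro-dKO, a derivative of RPE1, which are immortalised epithelial cells of the human retinal pigment layer. By its name the derivative carries an inducible Cas9 and a double knockout that includes p53, which all groups share. The groups were this line itself (WT), the same line without CFAP20 (CFAP20-KO) and CFAP20-KO cells with CFAP20-GFP (rescue). Cells were given 2 mM bromouridine for 30 min and harvested at once. The labels do not say what drives CFAP20-GFP, whether any line is 1 clone, or whether replicates are separate cultures. CFAP20 has 0 introns in the splice table and the windows carry no gene names, so its own transcription was not analysed here. Of the markers of the cell type, OTX2 (1 of 8 pigment epithelium genes), KRT8 and KRT18 (2 of 5 epithelial genes) had introns in the table, as did 5 of 8 mesenchymal and matrix genes, TUBB3 of 4 neuronal genes and 0 of 3 haematopoietic genes. An intron in the table gives a ratio and no level, so the labelled cell type could not be checked further.

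In BrU-seq, RNA made during a short pulse takes up bromouridine, is captured with an antibody and is sequenced, so that introns and the first kilobases of genes are well covered. CFAP20 is a small conserved protein of the ciliary axoneme that is also found in the nucleus. A rescue library serves to ask which differences between knockout and parental cells are absent once the protein is put back.

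The WT library used here stood apart from the other WT libraries. Median log2 signal over the windows used was 2.23 in WT replicate 1, 1.44 in WT replicate 2 and 2.18 in WT replicate 3, against 1.73 in the rescue library. The CFAP20-KO libraries lay between, at 2.15, 1.92 and 1.91. The smallest step of the deposited signal was 0.0733 in WT replicate 2 and 0.1 in the rescue library, and the windows summed to 116897185 and 97150098 steps, against 30183237 to 66322202 in the other 5 libraries. A step is not a read, because 1 fragment covers neighbouring bins, so no counting interval was computed.

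Start-site signal was modestly higher in the rescue library than in WT replicate 2. Signal was averaged over the first 3 kb of each transcript and compared as log2(signal + 0.0427), where 0.0427 is the 10th percentile of non-zero values. This scale understates differences of low windows. A mean signal of at least that value over all libraries was met by 4856 of the 9708 windows. The other 4852 entered no comparison, and 3590 of the 9708 were at 0 in both libraries. The rescue library was above WT replicate 2 in 3007 of the 4856 windows (61.9%), with a median log2 ratio of 0.21 and an SD across windows of 0.92.

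A difference of at least 2-fold was called in 713 windows that were higher in the rescue library (14.7%) and 303 that were lower (6.24%). Higher windows were 70.2% of those called, and 46.7% once each library was centred on its own median (445 higher, 508 lower). Centring set the library medians of 1.73 and 1.44 equal, which took off more than the median log2 ratio of 0.21. The excess of higher windows did not hold after this larger shift. CFAP20-KO replicates 2 and 3, which carry one column number, differed by 2-fold in 5.68% of windows, with an SD of 0.45. WT replicates 1 and 2 differed by 2-fold in 43.1%, with an SD of 1.106. WT replicates 1 and 3 differed by 2-fold in 18.2%, with an SD of 0.81. Rescue and WT replicate 2, at 20.9% in either direction, were thus less alike than WT replicates 1 and 3, which share no number, and more alike than WT replicates 1 and 2.

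The called windows were mostly those with little signal. In the lowest quartile of mean signal, 22.0% of windows were at least 2-fold higher and 13.7% lower. In the second quartile 21.8% were higher and 6.43% lower. In the third quartile 8.81% were higher and 3.05% lower, and in the highest quartile 6.10% were higher and 1.81% lower. Against the range of all 3 WT libraries, over 4848 windows with 7 values, the rescue library lay above it in 891 (18.4%) and below it in 1324 (27.3%). CFAP20-KO replicates 1, 2 and 3 lay above the same range in 32.3%, 16.7% and 17.5%, and below it in 24.9%, 20.6% and 19.5%.

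The mean signal near the start had another shape in the rescue library. It peaked 400 bp after the start at 9.60 units per 200-bp bin in the rescue library and 1200 bp after it at 8.04 in WT replicate 2. WT replicates 1 and 3 peaked at 1000 bp (16.2 and 14.5), CFAP20-KO replicate 1 at 600 bp (14.2) and CFAP20-KO replicates 2 and 3 at 1200 bp (10.7 and 10.5). The rescue library was thus the one with the earliest peak among the 7. The ratio of rescue to WT replicate 2 was 1.37 at 400 bp, 1.08 at 1000 bp and 1.06 at 3000 bp, and 1.10 at 20000 bp.

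**Figure D1:**
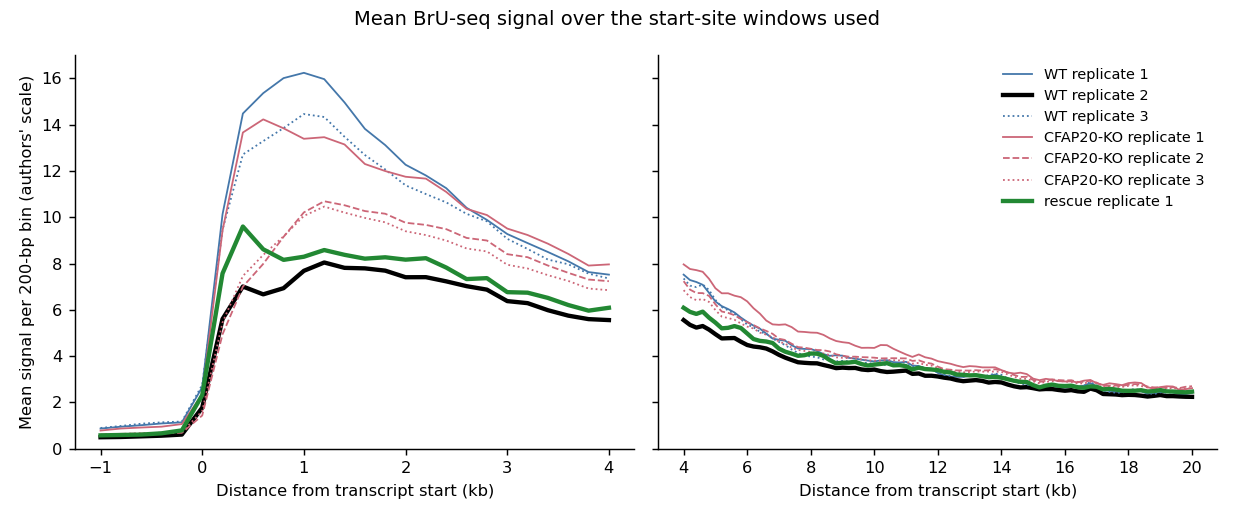
Mean signal per 200-bp bin (vertical axis, authors' scale) against distance from the transcript start (horizontal axis, kb) over the 4856 windows used, with 1 line per library, WT replicate 2 and rescue drawn thick. The rescue line has its peak of 9.60 at 400 bp and WT replicate 2 its peak of 8.04 at 1200 bp, both under the 3 other peaks above 14.

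Set against signal further into the gene, the start of genes differed little between the 2 libraries. The median log2 ratio of the first 2 kb over 5 to 20 kb was 1.68, 0.84 and 1.46 in the WT libraries, 1.41, 0.91 and 0.96 in the CFAP20-KO libraries and 0.91 in the rescue library. Rescue minus WT replicate 2 was 0.063, well inside the SD of 0.434 among WT libraries. The rescue library lay beside WT replicate 2 and CFAP20-KO replicates 2 and 3, and below the other 2 WT libraries. Within the first kilobases the order was different. For the 2428 windows with a signal above the median, the median log2 ratio of the first 1 kb over 1 to 3 kb was 0, -0.41 and -0.30 in WT, 0.033, -0.78 and -0.61 in CFAP20-KO and -0.029 in rescue. Rescue was 0.376 above WT replicate 2 on this measure, against an SD of 0.211 among the WT libraries. The rescue value itself lay inside the WT range, between WT replicates 1 and 3.

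Far from the start the libraries were close. The share of the 100 kb after the start that lay beyond 50 kb was 31.1%, 31.0% and 31.2% in WT, 31.4%, 30.9% and 31.2% in CFAP20-KO and 31.8% in rescue. The rescue library was the highest of the 7, by 0.809 percentage points over WT replicate 2, where the WT SD was 0.113. In the 2758 far-reaching windows it was inside the WT range, at 46.3% against 46.5%, 45.5% and 47.3% in WT, and the difference of 0.770 points was below the WT SD of 0.909. Before the start, between 3 and 1 kb upstream, the median log2 ratio to the first 3 kb was -5.12, -4.40 and -5.04 in WT, -5.02, -4.79 and -4.76 in CFAP20-KO and -4.67 in rescue. The rescue value lay inside the WT range.

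A small number of windows differed at least 8-fold between rescue and WT replicate 2: 45 were higher (0.927%) and 17 lower (0.35%). The other 5 libraries had no part in choosing them. In the 45 higher windows, CFAP20-KO replicate 1 was above WT replicate 1 in 38 of 43 (88.4%, against 43.4% of all windows used). The mean log2 signal of CFAP20-KO replicates 2 and 3 was above WT replicate 3 in 41 of 45 (91.1%, against 31.5%). All 3 CFAP20-KO libraries were above both WT replicates 1 and 3 in 28 of 43 (65.1%, against 8.56%). That rescue is high in these windows is set by the choice; the knockout libraries, which were not used, were high in most of them too.

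The 17 lower windows lay on the other side. CFAP20-KO replicate 1 was below WT replicate 1 in 16 of 16, against 55.5% of all windows, and CFAP20-KO replicates 2 and 3 were below WT replicate 3 in 13 of 16 (81.2%, against 68.3%). All 3 CFAP20-KO libraries were below both WT replicates 1 and 3 in 12 of 15 (80%, against 25%). At the 2-fold limit the other 5 libraries could have a part in the choice. A weak window could pass the filter on the mean of all libraries through their signal. At this limit CFAP20-KO replicate 1 was above WT replicate 1 in 77.0% of the higher windows, against 43.4% of all windows used. CFAP20-KO replicates 2 and 3 were above WT replicate 3 in 48.9% of them, against 31.5%. Of the 2-fold lower windows, the same differences were below 0 in 87.1%, against 55.5%, and in 83.1%, against 68.3%.

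**Figure D2:**
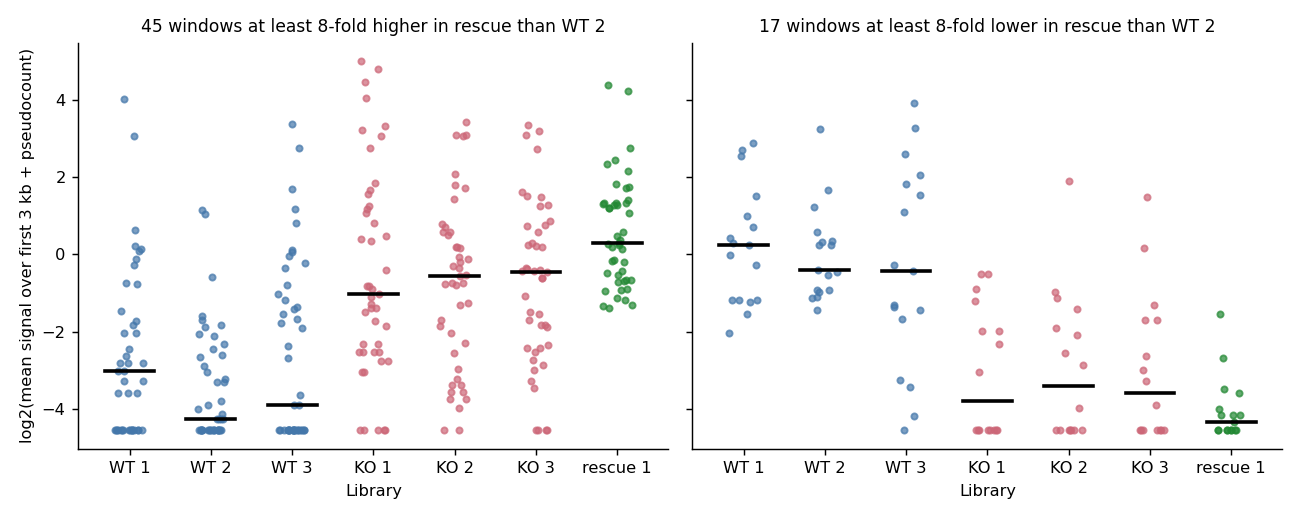
Each point is 1 window, as log2(mean signal over the first 3 kb + pseudocount) (vertical axis) in each of the 7 libraries (horizontal axis), with the median as a bar, for the 45 windows higher (left) and the 17 lower (right) by at least 8-fold in rescue than in WT replicate 2. Median signal of the higher windows was 0.08, 0.00978 and 0.0249 in WT and 0.446, 0.640 and 0.684 in CFAP20-KO; WT replicate 2 and rescue were used to choose the windows.

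Windows listed at 0 in one of the 2 libraries followed the same split in part. In 12 windows WT replicate 2 was listed at 0 while rescue had a signal of at least 0.5. Of these, 9 were also at 0 in WT replicate 1 and 10 in WT replicate 3, with 8 at 0 in all WT libraries. In the CFAP20-KO libraries 1, 0 and 1 of the 12 were at 0, and 6 of the 12 reached 0.5 in each. All WT libraries were at 0 and all CFAP20-KO libraries reached 0.5 in 3 of the 12. In the opposite direction 5 windows were at 0 in rescue with a signal of at least 0.5 in WT replicate 2, and 3, 4 and 4 of them were at 0 in CFAP20-KO replicates 1, 2 and 3. Among WT replicates 1 and 3, 0 and 1 of these 5 were at 0.

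Single windows with a signal above the median showed the split between WT and CFAP20-KO libraries, apart from the last one given here. The window uc002nqd.2 had a signal of 0.26, 0.23 and 0.996 in WT, 22.1, 8.36 and 6.55 in CFAP20-KO and 6.69 in rescue, which is 4.63 on the log2 scale above WT replicate 2. The CFAP20-KO and rescue libraries all lay above the 3 WT libraries. The window uc003hrc.4 had 5.78, 9.42 and 4.11 in WT, 0.498, 3.71 and 2.77 in CFAP20-KO and 0.3 in rescue, a log2 difference of -4.79. Here the rescue library was the lowest of the 7 and the CFAP20-KO libraries were all below the WT libraries. In uc003adj.3 the values were 8.24, 2.16 and 6.68 in WT, 31.9, 8.38 and 8.50 in CFAP20-KO and 20.8 in rescue, a log2 difference of 3.25. In uc001ser.4 they were 13.0, 6.43 and 3.42 in WT, 4.17, 2.21 and 2.54 in CFAP20-KO and 1.23 in rescue, a log2 difference of -2.35. In this last window the WT and CFAP20-KO ranges overlapped.

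Over all windows, the difference of rescue from WT replicate 2 and that of CFAP20-KO replicate 1 from WT replicate 1, which share no library, correlated with Pearson's r of 0.553 and Spearman's rho of 0.477 (4849 windows). With the mean of CFAP20-KO replicates 2 and 3 minus WT replicate 3, r was 0.404 and rho 0.218 (4855 windows). Windows are not independent replicates, and they share base composition and position across libraries, so these values describe the libraries only.

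**Figure D3:**
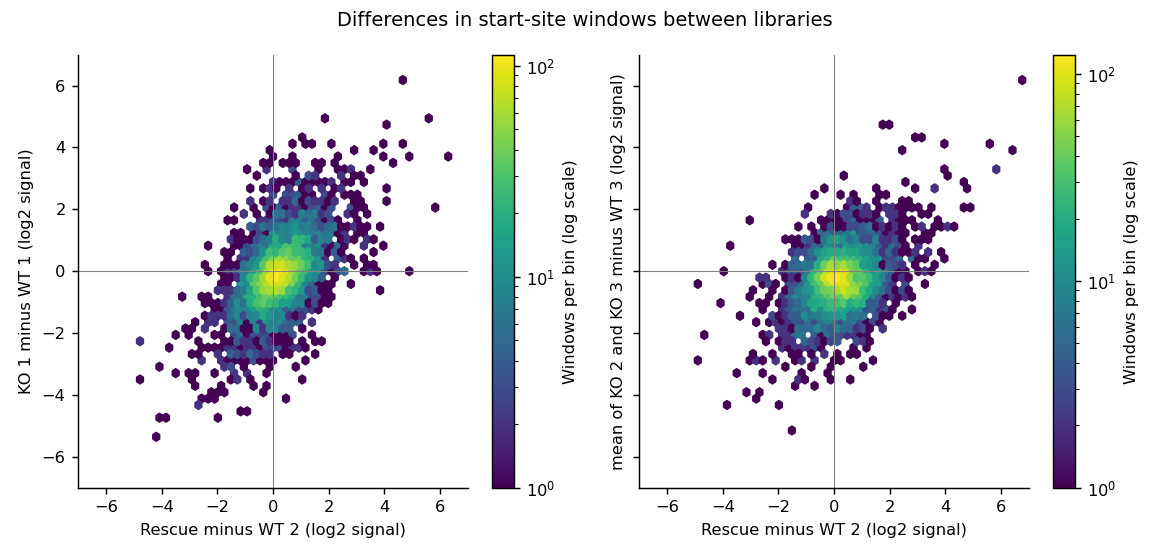
Log2 difference of rescue from WT replicate 2 (horizontal axes) against CFAP20-KO replicate 1 minus WT replicate 1 (left) and the mean of CFAP20-KO replicates 2 and 3 minus WT replicate 3 (right), with colour for the number of windows per bin on a log scale. Both clouds slope upwards, with r of 0.553 and 0.404.

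The splice index, a fraction from 0 to 1 per intron, gave gene names. How it was defined, and the depth behind it, are not stated, so a high value is not read here as more spliced RNA. Over the introns shared by rescue and WT replicate 2, the median index was 0.540, 0.692 and 0.648 in WT, 0.516, 0.708 and 0.683 in CFAP20-KO and 0.725 in rescue. The rescue library had the highest median of the 7. WT replicate 1 and CFAP20-KO replicate 1, which share another number, had the lowest medians.

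Rescue was above WT replicate 2 in 57.6% of introns and below it in 38.9%, with a median difference of 0.0142 and an SD across introns of 0.0985. A difference of at least 0.2 was called in 251 introns that were higher in rescue (3.81%) and 133 that were lower (2.02%). After each library was centred on its own median the counts were 148 and 240, so the higher share went from 65.4% to 38.1% of those called. This centring set the library medians over all introns, 0.723 and 0.691, equal, which took off more than the median difference of 0.0142. CFAP20-KO replicates 2 and 3 differed by 0.2 or more in 2.73% of introns, with an SD of 0.0791, and WT replicates 1 and 2 in 29.7%, with an SD of 0.159. WT replicates 1 and 3 differed in 14.9%, with an SD of 0.121. Rescue and WT replicate 2, at 5.82% in either direction, were less alike than CFAP20-KO replicates 2 and 3 and more alike than either of these WT pairs, which differs from the order for the windows. Within 0.05 of each other were 3129 introns (47.5%).

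The introns past 0.2 differed in which library stood out. Of the 249 higher introns with 7 values, rescue was above all 5 other libraries in 158 (63.5%, against 38.5% of all introns). WT replicate 2 was below all 5 others in 87 (34.9%, against 8.04%). Of the 126 lower introns, WT replicate 2 was above the 5 others in 91 (72.2%, against 32.8%), while rescue was below them in 8 (6.35%, against 2.91%). In most lower calls WT replicate 2 lay above the rest. Both libraries chose these introns, so an excess of either at the edge follows in part from the choice. Against all 3 WT libraries, rescue lay above in 2761 of 6506 introns (42.4%) and below in 422 (6.49%). CFAP20-KO replicates 1, 2 and 3 lay above in 12.5%, 35.6% and 30.3% and below in 42.9%, 13.4% and 13.7%.

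Of the introns named by rule, for a large difference from the WT range or within a gene list, those of at most 100 bases are shown whole here so that the splice sites can be seen. Each is the hg38 sequence on the transcribed strand from 3 exon bases before to 3 exon bases after the intron. Capitals mark the first 6 bases of the intron, which pair with U1 snRNA, and the AG that ends it. Coordinates cover the whole printed run, and intron numbers are those of the transcript listed in the table. Each lies between 2 exons of the named gene.
MCM2 intron 3, chr3:127604781-127604879, plus strand: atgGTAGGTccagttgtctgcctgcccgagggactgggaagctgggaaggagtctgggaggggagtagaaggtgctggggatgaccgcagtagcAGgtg
OBSL1 intron 2, chr2:219567967-219568057, minus strand: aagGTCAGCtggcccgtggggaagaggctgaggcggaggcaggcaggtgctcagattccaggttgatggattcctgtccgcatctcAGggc
RPL27 intron 4, chr17:43002781-43002874, plus strand: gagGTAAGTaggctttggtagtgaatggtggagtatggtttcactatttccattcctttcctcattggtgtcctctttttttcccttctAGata
CPSF4 intron 3, chr7:99448038-99448123, plus strand: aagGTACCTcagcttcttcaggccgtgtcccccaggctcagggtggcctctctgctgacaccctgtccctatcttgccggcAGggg
MMS19 intron 28, chr10:97458717-97458802, minus strand: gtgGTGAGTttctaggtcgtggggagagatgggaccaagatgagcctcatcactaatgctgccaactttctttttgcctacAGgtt

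The MCM2 intron, of 93 bases and 62.4% GC, had an index of 0.440, 0.324 and 0.581 in WT, 0.705 and 0.689 in CFAP20-KO replicates 1 and 3 and 0.699 in rescue, with no value in CFAP20-KO replicate 2. The rescue value lay with the knockouts and above all 3 WT libraries. The OBSL1 intron, of a cytoskeletal linker protein, had 0.0312, 0.340 and 0.359 in WT, 0.0339, 0.333 and 0.320 in CFAP20-KO and 0.719 in rescue, 0.379 above WT replicate 2. Rescue stood alone above the 6 others. The RPL27 intron had 0.156, 0.246 and 0.195 in WT, 0.229, 0.471 and 0.509 in CFAP20-KO and 0.478 in rescue. Rescue lay with CFAP20-KO replicates 2 and 3.

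The CPSF4 intron, of a subunit of the mRNA 3′ end cleavage complex, had 0.122, 0.406 and 0.250 in WT, 0, 0.185 and 0.160 in CFAP20-KO and 0.109 in rescue. The MMS19 intron, of an iron-sulfur protein assembly factor, had 0.195, 0.616 and 0.222 in WT, 0.105, 0.2 and 0.171 in CFAP20-KO and 0.136 in rescue. WT replicate 2 was the highest of the 7 in both, and in MMS19 the other 6 lay within 0.105 to 0.222.

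Other introns outside the WT range included several in which rescue stood alone. In TROAP intron 5, of a mitotic spindle protein, the index was 0.113, 0.159 and 0.383 in WT, 0.0952, 0.273 and 0.2 in CFAP20-KO and 0.613 in rescue. In NPLOC4 intron 3, of a cofactor of the p97 segregase, it was 0.136, 0.161 and 0.0775 in WT, 0.182, 0.0845 and 0.133 in CFAP20-KO and 0.561 in rescue. In VARS2 intron 2, of the mitochondrial valyl-tRNA synthetase, it was 0.108, 0.207 and 0.126 in WT, 0.273, 0.163 and 0.326 in CFAP20-KO and 0.571 in rescue. Rescue exceeded the 6 other libraries in all 3 introns. In RPUSD2 intron 2 rescue was also the highest library, but only just above WT replicate 3, and WT replicate 2 was the lowest. The index was 0.473, 0.217 and 0.739 in WT, 0.605, 0.648 and 0.6 in CFAP20-KO and 0.746 in rescue. The difference there was 0.528, the largest of the introns outside the WT range.

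Lower introns with rescue under all WT libraries included METTL1 intron 4, of a tRNA methyltransferase, with 0.312, 0.613 and 0.333 in WT, 0.250, 0.318 and 0.394 in CFAP20-KO and 0.213 in rescue. In MAP2K3 intron 5, of a kinase upstream of p38, the values were 0.554, 0.887 and 0.792 in WT, 0.189, 0.898 and 0.743 in CFAP20-KO and 0.494 in rescue. In SEPTIN9 intron 2 they were 0.698, 0.807 and 0.649 in WT, 0.273, 0.543 and 0.543 in CFAP20-KO and 0.535 in rescue. In DLEU2 intron 1, of a long noncoding RNA, they were 0.620, 0.814 and 0.729 in WT, 0.604, 0.554 and 0.534 in CFAP20-KO and 0.547 in rescue. In SEPTIN9 and DLEU2 the CFAP20-KO and rescue libraries all lay below the 3 WT libraries, whereas in MAP2K3 and METTL1 the knockouts overlapped with WT.

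The difference of rescue from WT replicate 2 followed the GC content of the intron. In the quartile with the lowest GC content (20.2% to 43.5%) the median difference was 0.0483, rescue was higher in 74.5% of introns, and 93 introns were called higher against 7 lower. In the second quartile the median was 0.0151, with 58 higher and 23 lower. In the third it was 0.0032, with 60 and 43. In the highest quartile (56.2% to 83.8%) it was 0, rescue was higher in 46.7%, and 40 were called higher against 60 lower. Introns after the first alone gave the same order, from 0.0543 in the lowest to 0.0035 in the highest quartile. The order depended on the WT library. Over all introns the median index in the lowest quartile was 0.722, 0.719 and 0.753 in WT and 0.791 in rescue. In the highest quartile it was 0.467, 0.734 and 0.590 in WT and 0.724 in rescue. The gap between these medians was thus wider at high GC content against WT replicates 1 and 3. The calls against WT replicate 2 can also be read as shares. From lowest to highest GC quartile, 5.64%, 3.52%, 3.64% and 2.43% of introns were called higher, against 3.81% of all introns. Called lower were 0.424%, 1.40%, 2.61% and 3.64%, against 2.02%. The higher share thus did not fall at each step, whereas the lower share rose at each.

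The knockout differences did not have the falling order of rescue minus WT replicate 2. CFAP20-KO replicate 1 minus WT replicate 1 had medians of -0.0123, -0.0278, 0 and 0 from the lowest to the highest quartile of GC content. The mean of CFAP20-KO replicates 2 and 3 minus WT replicate 3 had 0.0170, 0.0143, 0.0204 and 0.0278. Donor sites that begin introns of low GC content followed it in turn: median differences were 0.0264 for GTAAGT (711 introns, median GC content 45.2%), 0.0335 for GTAAGA (278, 45.4%), 0.0076 for GTGAGT (1035, 51.2%) and 0 for GTGAGC (364, 54.3%). Once the median of its GC quartile was taken off each intron, GTAAGT stood at 0.0022, GTAAGA at 0.0107, GTGAGT at -0.0038 and GTGAGC at -0.0035. The other donors examined, GTAAGG and GTGAGG, went from 0.0117 to -0.0003 and from 0.0059 to -0.0008.

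Position in the transcript gave a smaller step. First introns had a median difference of 0, with rescue higher in 44.2% of 1662. Later introns under 1 kb had 0.0188 (61.7% of 3026), those of 1 to 5 kb 0.0246 (63.2% of 1613), and those of at least 5 kb 0.0224 (61.3% of 292). In the knockouts the longest introns were on the other side of 0: -0.0753 for CFAP20-KO replicate 1 minus WT replicate 1 and -0.0275 for CFAP20-KO replicates 2 and 3 minus WT replicate 3. With the median of its GC quartile taken off each intron, the rescue differences were -0.0120, 0.0057, 0.0029 and -0.0044 in the same order of classes. The knockout values were not centred in this way. In the longest introns the median index was 0.702, 0.726 and 0.775 in WT and 0.765 in rescue. In first introns it was 0.246, 0.466 and 0.313 in WT and 0.464 in rescue.

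**Figure D4:**
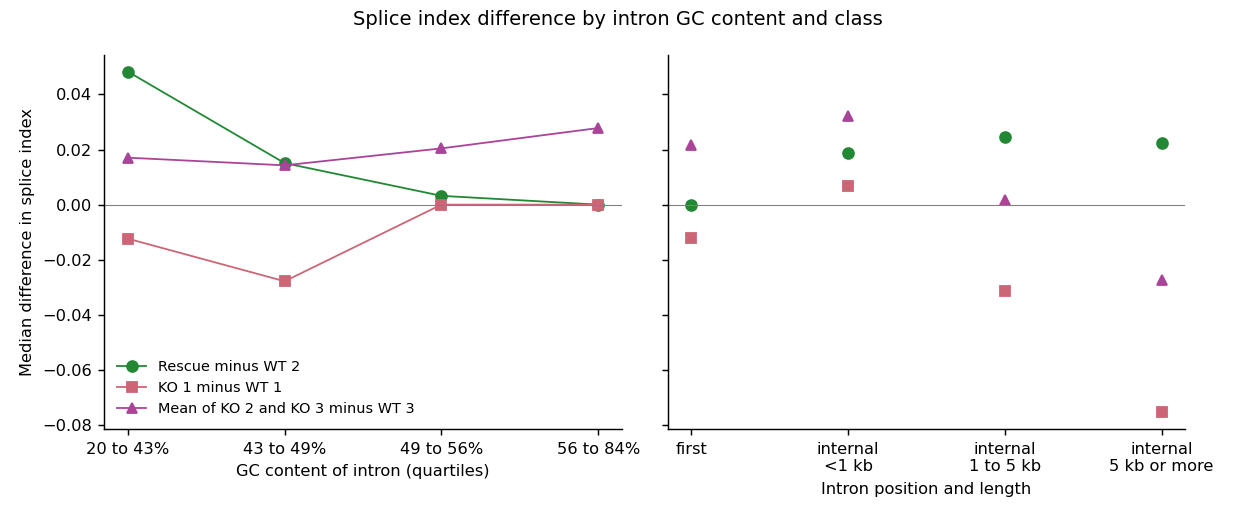
Median difference in splice index (vertical axes) by quartiles of intron GC content (left) and by intron position and length (right), for rescue minus WT replicate 2 and the 2 knockout comparisons; no error is drawn because each point is 1 difference between libraries. Rescue minus WT replicate 2 goes from 0.0483 in the lowest to 0 in the highest GC quartile, and the knockout comparisons do not.

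Among gene lists, the 3 with the highest medians were replication, growth factor feedback and matrix genes. For comparison, all 6593 introns had a median difference of 0.0142 with 57.6% above 0. The list of replication, checkpoint and R-loop factors had 86 introns of 25 genes, a median difference of 0.0647, 64 introns above 0 (74.4%), 14 called higher (16.3%, against 3.81%) and 1 lower. After the median of each intron's GC quartile was taken off, its median was 0.0275. CFAP20-KO replicate 1 minus WT replicate 1 had a median of -0.0073 over this list, and CFAP20-KO replicates 2 and 3 minus WT replicate 3 had 0.0322.

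Of the 14 higher introns, 9 lay in the MCM2 to MCM7 genes, which code for the ring-shaped helicase that unwinds DNA at replication forks. These genes were singled out after their values were seen. They had 44 introns, a median difference of 0.0751 and 36 introns above 0 (81.8%). Called higher were 9 (20.5%, against 3.81% of all introns) and lower 0. Taking off the GC quartile left 0.0653. The other 42 introns of the list had a median of 0.0293. The knockouts were higher in the MCM introns too. CFAP20-KO replicate 1 minus WT replicate 1 had a median of 0.0330 there, against -0.0066 over all 6593 introns. CFAP20-KO replicates 2 and 3 minus WT replicate 3 had 0.0497, against 0.0196. MCM2 had a median difference of 0.162 over 7 introns, 6 of them higher in rescue. Its median index was 0.694, 0.729 and 0.711 in WT, 0.706, 0.746 and 0.771 in CFAP20-KO and 0.847 in rescue.

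MCM3 had a median difference of 0.123 with 9 of 11 introns higher, and MCM5 one of 0.118, also with 9 of 11 higher. MCM5 had a median index of 0.513, 0.603 and 0.538 in WT, 0.359, 0.643 and 0.6 in CFAP20-KO and 0.738 in rescue. In MCM2 and MCM5 the rescue library was the highest of the 7. MCM3 differed in this, since its median index was 0.545, 0.439 and 0.509 in WT, 0.458, 0.656 and 0.587 in CFAP20-KO and 0.562 in rescue. MCM4 (0.0354, 4 of 4 introns higher), MCM6 (0.0769, 2 of 3) and MCM7 (0.0211, 6 of 8) had smaller medians. CDC6, which loads the helicase, had 0.0737 with 5 of 5 higher. PCNA, the polymerase clamp, had -0.0043 with 2 of 5 higher, and TOP2A, which untangles DNA, had 0.0016 with 3 of 6.

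Genes of growth factor feedback and the immediate early response had 33 introns of 16 genes, a median difference of 0.0533, 26 introns above 0 (78.8%), 2 called higher (6.06%, against 3.81% of all introns) and 1 lower. After the GC quartile was taken off, its median was 0.0444, the highest of the 12 lists. HBEGF, a ligand of the EGF receptor, had 3 of 3 introns higher. Its intron 3 was at 0.138, 0.350 and 0.580 in WT, 0.518, 0.733 and 0.628 in CFAP20-KO and 0.597 in rescue.

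The matrix and adhesion list had 141 introns of 32 genes, a median difference of 0.0433, 112 introns above 0 (79.4%), 5 called higher (3.55%, against 3.81%) and 0 lower. Its median was 0.0268 after the GC quartile was taken off. FN1, the gene of fibronectin, had 16 of 16 introns higher in rescue, by 0.0111 to 0.130. Its median index was 0.818, 0.773 and 0.728 in WT, 0.788, 0.896 and 0.835 in CFAP20-KO and 0.827 in rescue, so the rescue library lay within the range of the others. THBS1, which codes for the matrix protein thrombospondin 1, had 14 of 15 higher, with a median difference of 0.0697. SPARC, a collagen-binding matrix protein, had 6 of 6 higher (0.0743), and MMP14, a membrane-bound protease, 8 of 8 (0.0619).

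Not all matrix genes lay on this side: of the 32 genes, 23 had a median above 0 and 9 below it. Those below included COL12A1 (-0.175, 1 intron), a fibril-associated collagen, and the laminin genes LAMB2 (-0.0673, 0 of 2 introns higher), LAMC1 (-0.0318, 1 intron) and LAMB1 (-0.0263, 1 intron). LOXL1, a crosslinking enzyme, had -0.0388 with 0 of 2 higher, and TIMP2, a protease inhibitor, -0.0038 with 1 of 2. Integrin genes were mixed. ITGA5 had 11 of 16 introns higher with differences from -0.175 to 0.264, ITGA3 had 3 of 8 higher with a median of -0.0134, and ITGAE had 0 of 3 higher with a median of -0.126. The genes with every intron on one side can be read against all genes: of 768 genes with at least 3 introns, 127 had every intron higher in rescue (16.5%) and 46 every intron lower (5.99%).

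**Figure D5:**
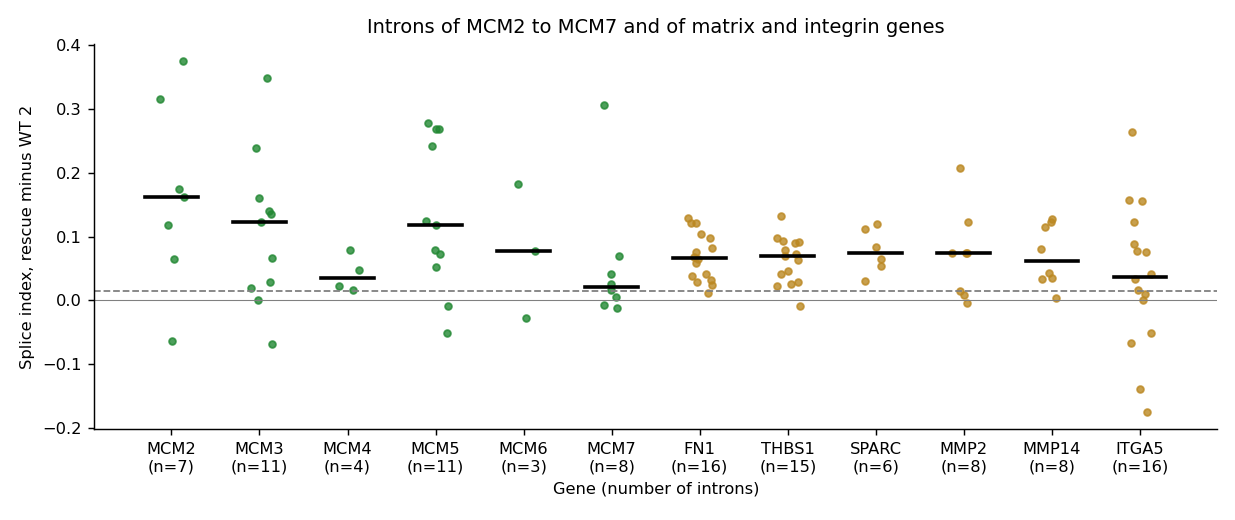
Each point is the splice index of 1 intron in rescue minus WT replicate 2 (vertical axis) for the MCM genes and 6 matrix and integrin genes (horizontal axis), with the gene's median as a bar, a line at 0 and a dashed line at the median of all introns, 0.0142. All 16 introns of FN1 lie above 0, and those of ITGA5 lie on both sides, from -0.175 to 0.264.

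The other lists had lower medians, and their shares of introns called higher can be read against 3.81% of all introns. Splicing and RNA processing factors had a median of 0.0324 over 349 introns, with 8 called higher (2.29%) and 2 lower, and 0.0064 after the GC quartile was taken off. Heat shock, chaperone and stress response genes had 0.0331 over 217 introns, with 12 higher (5.53%) and 1 lower, and 0.0069 after it. Translation factors had 0.0249 over 168 introns, with 1 higher (0.595%) and 0 lower, and 0.0062 after it. Cytoplasmic ribosomal proteins had 0.0177 over 89, with 4 higher (4.49%) and 0 lower, and 0.00061 after it. Mediator and RNA polymerase II elongation genes had a median of 0.0065 over 87 introns, below that of all introns, and -0.0015 after the GC quartile was taken off. Yet 7 of the 87 were called higher (8.05%) and 2 lower (2.30%, against 2.02%). These 7 included MED8 intron 3, of a Mediator subunit, at 0.639, 0.395 and 0.5 in WT, 0.571, 0.763 and 0.878 in CFAP20-KO and 0.750 in rescue.

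Actin and YAP target genes had 0.0242 over 226 introns, with 5 higher (2.21%) and 1 lower, and 0.0178 after the GC quartile was taken off. Microtubule and mitosis genes had 0.0085 over 97, with 2 higher (2.06%) and 1 lower, and 0.0020 after it. ZNF genes had 0.0082 over 82, with 3 higher (3.66%) and 3 lower, and the sign turned after it, to -0.0031. The 11 introns of cilium and centrosome genes, the compartment for which CFAP20 is named, had a median of 0.0372. It turned to -0.0067 after the GC quartile was taken off. Called higher were 0, against 3.81% of all introns, and lower 1 (9.09%, against 2.02%), a share that rests on 1 intron. That 1 was CEP20 intron 1, at 0.417, 0.701 and 0.602 in WT, 0.0816, 0.347 and 0.421 in CFAP20-KO and 0.469 in rescue. IFT88 intron 1, of an intraflagellar transport protein, was at 0, 0.371 and 0.0278 in WT, 0, 0.121 and 0.0323 in CFAP20-KO and 0.226 in rescue.

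By gene, a median difference of at least 0.1 was found in 63 of the 768 genes with 3 or more introns (8.20%) and one of -0.1 or below in 25 (3.26%). The gene with the highest median was MED8 (0.244, 3 introns). MEPCE, the capping enzyme of 7SK RNA, followed with 0.207, and its median index was 0.293, 0.548 and 0.320 in WT, 0.449, 0.554 and 0.531 in CFAP20-KO and 0.715 in rescue. VDAC2, a mitochondrial outer membrane channel, had 0.183 with 5 of 5 introns higher, at 0.573, 0.577 and 0.689 in WT, 0.590, 0.674 and 0.709 in CFAP20-KO and 0.741 in rescue. BUB3, a spindle checkpoint protein, had 0.179 with 3 of 4 higher, at 0.567, 0.519 and 0.547 in WT, 0.472, 0.491 and 0.609 in CFAP20-KO and 0.733 in rescue. UBAP2L had 0.172 with 5 of 5 higher. Rescue was above all 6 other libraries in MEPCE, VDAC2 and BUB3, and in UBE2Q1, AOPEP and PEBP1 of the other genes with the highest medians. It was not in MED8, TOMM34, RNF40 and UBAP2L. In MED8 rescue, at 0.730, lay below CFAP20-KO replicates 2 and 3 (0.793 and 0.774). In TOMM34 it was 0.777, below WT replicates 1 and 3 (0.782 and 0.785), and in RNF40 0.632, below WT replicate 3 (0.667). WT replicate 2 was the lowest library in MED8, TOMM34 and UBAP2L, at 0.471, 0.563 and 0.715.

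HDAC1, a histone deacetylase, had the lowest median, -0.284 over 3 introns, at 0.197, 0.588 and 0.478 in WT, 0.171, 0.545 and 0.563 in CFAP20-KO and 0.305 in rescue. Rescue lay inside the WT range. MCRS1 had -0.278, at 0.127, 0.494 and 0.125 in WT, 0.133, 0.130 and 0.286 in CFAP20-KO and 0.308 in rescue, so that WT replicate 2 was the highest library. CTDSP1, a phosphatase of the RNA polymerase II tail, had -0.220 with 0 of 3 introns higher, at 0.279, 0.656 and 0.538 in WT, 0.393, 0.548 and 0.441 in CFAP20-KO and 0.415 in rescue. APEH, an acylpeptide hydrolase, had -0.180 over 4 introns and NCDN, a neuronal protein, -0.161 over 3. RRP7BP, at -0.201, is a pseudogene of RRP7A, whose reads may not be told apart from those of its copy. WT replicate 2 was the highest of the 3 WT libraries in HDAC1, MCRS1, CTDSP1, RRP7BP, APEH and NCDN.

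Intron by intron, the difference of rescue from WT replicate 2 correlated only weakly with the knockout differences that share no library with it: r was 0.191 with CFAP20-KO replicate 1 minus WT replicate 1 (6593 introns) and 0.120 with CFAP20-KO replicates 2 and 3 minus WT replicate 3 (6506 introns). In the higher introns the median knockout differences were 0.0645 and 0.0558, and in the lower ones -0.0539 and 0.0217, against -0.0067 and 0.0196 over all introns. The second value of the lower introns was thus close to that of all introns. The part of library preparation, depth per intron and base composition in any of these differences was not tested.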

How the data were processed

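The members and gene lists were chosen with earlier results of these data known, and list members caught wrongly by their symbols were taken out after their values were seen. The submitters' processing notes name genome hg38, STAR 2.7.7a and HOMER 4.8.2 among the tools, without roles or settings. The deposited signal (coverage) per 200-bp bin was scaled by the authors to a reference that is not given. The deposited splice index is a fraction. The authors' deposited column of index differences (another number) equalled the difference of the 2 columns to within 2.3e-08.

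Python 3.11.15 with pandas 2.3.3 and numpy 2.4.6 computed log2(signal + 0.0427) over the first 3 kb and index differences. Windows were called at 2-fold and introns at 0.2. Steps were tested on simulated data. Intron coordinates, sequence and GC content came from hg38, and 6531 of 6709 introns matched exon ends of GENCODE 44. Donor and acceptor bases were GT and AG in 98.5%. Lists kept protein-coding genes. Named were the 10 genes with the highest and the 10 with the lowest median difference over at least 3 introns, the 10 introns on each side with 7 values and rescue outside the WT range (1 per gene), the 2 introns with the largest difference per list, and 2 windows per direction above the median signal. The text gives some of these, and the MCM, matrix and other list genes it adds were picked after their values were seen. GC content, donor sites and 8-fold windows were examined after the data were seen.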

Additional observations from a re-analysis of the deposited data

How the results depend on the processing

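No paired analysis was possible because every value comes from 1 library a side and no test. Of 100 alternatives computed, 62 left the value within its spread or 1.5 times its count, 29 moved it and 9 reversed it.

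Of windows higher in rescue (713), the alternatives gave 445 with centring, 1439 at 1.5-fold, 270 at 3-fold, 467 against WT library 3 and 426 against the mean of 3 WT libraries. Of windows lower (303) they gave 173 with 4 times the pseudocount, 156 with a filter at 10 times it, 508 with centring, 639 at 1.5-fold, 105 at 3-fold, and 1483, 1278 and 708 against WT libraries 1, 3 and the mean. The median log2 ratio (0.21) became 0 without the filter. That was counted as unchanged because the spread used, the SD of the WT library medians, is larger than 0.21. The ratio reversed to -0.46, -0.41 and -0.22 against WT library 1, WT library 3 and the mean. The start ratio (0.063) reversed to -0.776, -0.551 and -0.421 in the same order. The share of signal beyond 50 kb (0.809 points) moved to 0.659 beyond 20 kb.

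Of introns higher (251), they gave 1175 at a limit of 0.1, 33 at 0.3, 148 with centring, and 1989, 1002 and 709 against WT libraries 1, 3 and the mean. Of introns lower (133), they gave 636 at 0.1, 30 at 0.3, 240 with centring, and 43 and 23 against WT library 1 and the mean. The median difference (0.0142) moved to 0.112 against WT library 1. It was 0.0460 against WT library 3, 0.0614 against the mean of 3 WT libraries and 0.0070 as a median over genes. These 3 values were counted as unchanged because the spread used was again the SD of the WT library medians. Centring within quartiles of GC content, added after the data were seen, gave 180 higher and 170 lower, and reversed the list medians of cilium and centrosome (-0.0067), Mediator (-0.0015) and ZNF genes (-0.0031).

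Leaving out each WT replicate gave 1054 to 1261 windows above the WT range (891), 1435 to 2796 below it (1324; 2796 without WT replicate 2), 2961 to 4099 introns above it (2761) and 527 to 1065 below it (422; 1065 without WT replicate 1 and 690 without WT replicate 2). The knockout medians held with either CFAP20-KO replicate alone, at -0.27 for both on windows, and 0.0248 and 0.0156 on introns. The cause of each change was not tested, except that fewer or more calls follow from a limit itself.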
